A study of Mus musculus with 32 samples.

Results

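Small leucine-rich proteoglycans and matricellular proteins are secreted into the connective tissue between cells, and 10 of their genes were followed here through 4 tissues of mutant and wild-type mice. The list of genes was chosen with earlier results of these data known. Its genes are Dcn, Bgn, Aspn, Fmod, Lum, Prelp, Ogn, Dpt, Sparc and Postn. They are 10 of the 51510 genes for which transcript values could be summed, and all 10 were found. The RNA came from the heart, the liver, a skeletal muscle and the brown adipose tissue (BAT, the heat-producing fat) of C57BL/6J males. Mut libraries come from animals of a Smim30 knockout line, and WT libraries from wild-type animals of the same strain label. Smim30 encodes a small membrane protein. The sources used here do not say how the knockout allele was made, how old the mice were or which muscle was taken. Each tissue has 4 Mut and 4 WT libraries, 32 in all, from individual mice, and whether libraries of different tissues share a mouse was not tested.

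Fibroblasts and related stromal cells make most of these proteins in soft tissue. The proteoglycans among them carry leucine-rich repeats that bind collagen, and with their sugar chains they set the width and spacing of collagen fibrils. Matricellular proteins such as SPARC and periostin sit in the same matrix but act mainly on collagen assembly and on cell adhesion and signalling, and their genes are known for high activity in growing, injured or fibrotic tissue. In bulk tissue RNA, fewer cells of a type and less RNA per cell cannot be told apart, and this holds for every level given here.

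The class I proteoglycan genes are Dcn (decorin), Bgn (biglycan) and Aspn (asporin). Dcn lies at chr10:97479609-97518143 and Bgn at chrX:73483602-73495933 on the mouse build GRCm38, both on the plus strand. Aspn lies at chr13:49544443-49567565 on the plus strand. The class II genes are Lum (lumican), Fmod (fibromodulin) and Prelp, whose protein anchors collagen to basement membranes. Lum lies at chr10:97565128-97572703 on the plus strand, next to Dcn. Fmod, at chr1:134037254-134048277 on the plus strand, and Prelp, at chr1:133910304-133921414 on the minus strand, are neighbours as well. Ogn (osteoglycin, also called mimecan) is a class III gene at chr13:49608046-49624501 on the plus strand, beside Aspn. Dpt (dermatopontin, a decorin-binding protein) lies at chr1:164796644-164824266 on the plus strand. Sparc (osteonectin, a collagen-binding calcium-dependent glycoprotein) lies at chr11:55394500-55423183 on the minus strand. Postn (periostin, a ligand of integrins) lies at chr3:54361109-54391037 on the plus strand. All 10 are annotated as protein coding.

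RefSeq start regions on GRCm38.p6 were matched by symbol for 8 of the 10 genes, Dcn and Lum having no entry. The 4 printed here belong to Fmod and Dpt, whose Mut minus WT difference varied between tissues by the interaction test given further on, and to Prelp and Postn, which were highest in BAT. Each runs 5′ to 3′ on the gene's strand, from 250 bases before to 50 after the RefSeq start, with motif matches in capitals. Fmod is at chr1:134037004-134037303 on the plus strand, and Dpt at chr1:164796413-164796712 on the plus strand. Prelp is at chr1:133921352-133921651 on the minus strand, and Postn at chr3:54360857-54361156 on the plus strand.
Fmod: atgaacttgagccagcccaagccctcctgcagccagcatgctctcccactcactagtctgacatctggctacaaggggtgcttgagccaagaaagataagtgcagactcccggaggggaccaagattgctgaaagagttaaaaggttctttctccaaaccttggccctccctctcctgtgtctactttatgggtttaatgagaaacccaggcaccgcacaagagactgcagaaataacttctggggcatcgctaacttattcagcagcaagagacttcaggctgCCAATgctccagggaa
Dpt: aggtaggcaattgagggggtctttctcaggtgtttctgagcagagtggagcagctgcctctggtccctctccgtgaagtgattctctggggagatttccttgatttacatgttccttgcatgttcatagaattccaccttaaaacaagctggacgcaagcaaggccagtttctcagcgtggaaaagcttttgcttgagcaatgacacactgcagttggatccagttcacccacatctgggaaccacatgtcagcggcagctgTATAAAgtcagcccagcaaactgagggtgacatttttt
Prelp: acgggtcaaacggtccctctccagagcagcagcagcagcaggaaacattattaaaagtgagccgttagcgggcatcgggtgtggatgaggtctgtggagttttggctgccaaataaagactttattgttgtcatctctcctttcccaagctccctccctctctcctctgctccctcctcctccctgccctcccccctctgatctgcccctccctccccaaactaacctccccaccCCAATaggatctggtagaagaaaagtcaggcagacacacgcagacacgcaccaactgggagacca
Postn: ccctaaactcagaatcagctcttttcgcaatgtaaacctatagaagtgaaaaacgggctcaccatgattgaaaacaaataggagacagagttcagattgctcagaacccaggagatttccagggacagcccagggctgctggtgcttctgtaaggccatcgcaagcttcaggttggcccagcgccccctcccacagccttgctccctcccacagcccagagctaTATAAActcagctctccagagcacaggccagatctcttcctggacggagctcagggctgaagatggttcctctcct
The capitals mark CCAAT in Fmod and Prelp and TATAAA in Dpt and Postn. TATAAA or its reverse complement TTTATA was found in 4 of the 8 windows, Ogn, Aspn, Dpt and Postn, and in 13.6% of all 32851 windows of the same length. In Postn it begins 26 bases before the start and in Dpt 13 bases after it. In Ogn the matches begin farther from the start, at -229 and -227, and in Aspn at -207 and -178. CCAAT or ATTGG was found in 3 of the 8 windows (Fmod, Prelp and Aspn) and in 37.4% of all windows. GGGCGG or CCGCCC, the GC box, was found in Bgn alone among the 8 and in 35.7% of all windows. The AP-1 motif TGANTCA was found in none of the 8 and in 7.81% of all, and GGAATG or CATTCC, the TEAD motif, in Ogn alone and in 14.7% of all. In Ogn the letters of TTTATA and TATAAA overlap. A match describes these letters and is not a site shown to be used.

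Values are TPM, a transcript level per length scaled to the same sum in each library, so the read depth of a library is unknown and no counting error can be given. The number of genes at 1 TPM or more was 11480 to 12431 per library. Ucp1, Myh6, Alb and Acta1 were highest in BAT, heart, liver and muscle, as labelled, with at least 2444 TPM in their own tissue. Smim30 RNA was still present in Mut, at 17.3 to 33.0 TPM in Mut against 18.6 to 37.6 TPM in WT. Its Mut libraries were all below the WT libraries in heart and in muscle and overlapped them in BAT and in liver, where the RNA level does not separate the labels. In BAT, WT 1 and WT 2 stood apart from the other 6 libraries, with a median correlation to the rest of 0.978. In heart Mut 2 stood apart, with 54.7% of its TPM on mitochondrial genes, and in muscle Mut 2 and Mut 3 lay together at one end of the first principal component. The Mut minus WT values in BAT, heart and muscle, the contrasts of WT BAT with other tissues and the interaction test are given with and without them.

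The summed level of the 10 genes was highest in BAT and lowest in liver in both genotypes. It averaged 1370 ± 202 TPM in Mut BAT and 947 ± 197 TPM in WT BAT (SD, n = 4 each). In heart it was 663 ± 100.1 TPM in Mut and 749 ± 94.4 TPM in WT, in muscle 629 ± 41.5 TPM in Mut and 494 ± 37.4 TPM in WT, and in liver 283 ± 51.8 TPM in Mut and 208 ± 27.0 TPM in WT (SD, n = 4 each). Sparc made up 53.5% of the sum in Mut BAT and 51.0% in WT BAT. Dcn led in the other tissues, at 43.8% in Mut heart and 48.8% in WT heart, 44.8% in Mut liver and 46.7% in WT liver, and 49.6% in Mut muscle and 53.2% in WT muscle. Prelp was the next largest share in BAT, at 16.4% in Mut and 21.9% in WT.

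**Figure D1:**
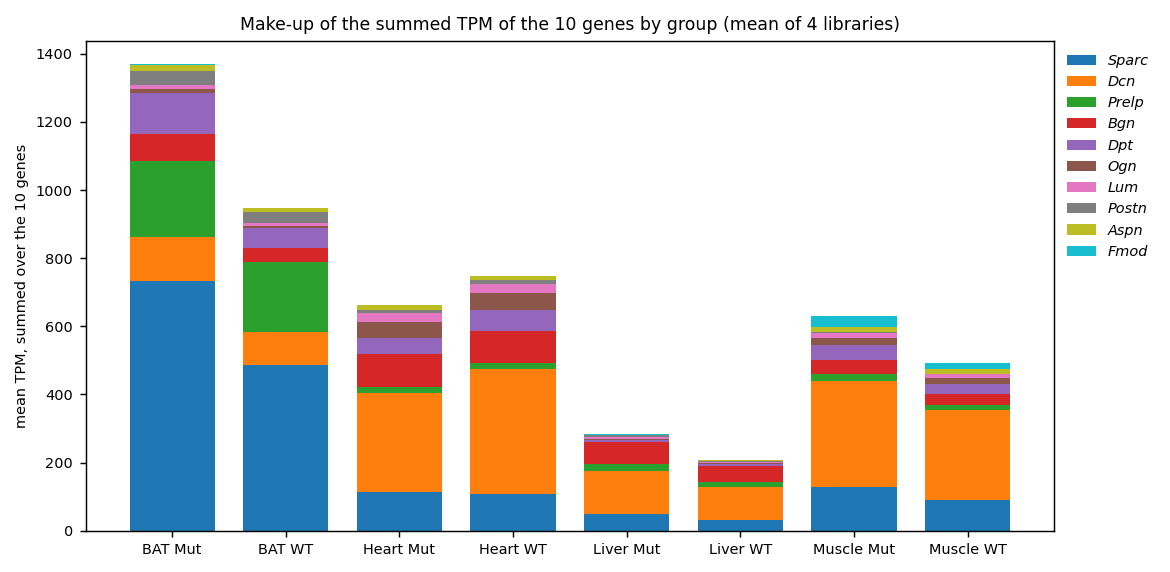
Mean TPM of each of the 10 genes, stacked, in the 8 groups (mean of 4 libraries, linear axis from 0). Sparc and Prelp fill most of the bar in BAT, where the sum was 1370 TPM in Mut and 947 TPM in WT, and Dcn is the largest block in heart, liver and muscle.

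Tissue levels were compared in 1 limma fit over the 16 WT libraries, on log2(TPM + 1), with Benjamini-Hochberg adjustment over the 12710 genes tested, and a gene was called at an adjusted p under 0.05. The tissues differ in most genes, so the counts for these 10 genes are set beside the share of all genes called. Between heart and BAT 8 of the 10 were called, against 63.2% of all genes, with 5 higher in heart against 23.2% and 3 lower against 39.9%. Between muscle and BAT 8 were called, against 73.6%, with 4 higher in muscle against 32.7% and 4 lower against 40.9%. Between BAT and liver 7 were called, all higher in BAT, against 72.4% of all genes called in either direction and 35.0% called higher in BAT. Between heart and liver 9 were called, all higher in heart, against 79.2% in either direction and 32.5% higher in heart. Between muscle and heart 8 were called, against 64.8%, with 2 higher in muscle against 35.9% and 6 lower against 28.9%. Between muscle and liver 8 were called, against 80.1%, with 7 higher in muscle against 37.2% and 1 lower, Postn, against 42.9%. In the Mut libraries heart and BAT gave 9 calls among the 10, against 71.9% of all genes, and muscle and BAT 8, against 74.6%. BAT and liver gave 7 there, against 72.2%, and heart and liver 8, against 81.0%. Muscle and heart gave 5, against 66.3%, and muscle and liver 9, against 80.0%. Without WT 1 and WT 2 of BAT, 7 of the 10 were called between heart and BAT, against 62.6% of all genes, and Fmod lost its call (adjusted p = 0.0946, limma). Between muscle and BAT 9 were then called, against 70.9%, and Bgn gained a call (adjusted p = 0.000902). Between BAT and liver 7 were then called, against 70.2%.

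Prelp, Sparc and Postn were highest in BAT. Prelp had 174, 179, 248 and 224 TPM in the WT libraries of BAT and averaged 17.2 ± 2.53 TPM in WT heart, 14.8 ± 2.37 TPM in WT liver and 14.2 ± 1.36 TPM in WT muscle (SD, n = 4 each). In BAT it stood far above the other tissues, whose neighbours in this order did not pass the test (adjusted p = 0.159 for heart over liver and 0.762 for muscle against liver, limma). Under 1 of 22 alternatives heart against liver did pass (adjusted p = 0.000485, limma). Muscle against heart likewise passed under 1 of 22 (adjusted p = 0.00570). Sparc averaged 486 ± 123 TPM in WT BAT, 109 ± 6.70 TPM in WT heart, 91.5 ± 13.1 TPM in WT muscle and 31.5 ± 5.62 TPM in WT liver. Heart and muscle did not pass the test for Sparc (adjusted p = 0.160), and every other pair did. Postn averaged 32.0 ± 2.50 TPM in WT BAT, 11.0 ± 2.78 TPM in WT heart, 3.75 ± 0.406 TPM in WT liver and 2.67 ± 0.388 TPM in WT muscle, and each neighbouring pair passed the test (largest adjusted p = 0.0164, muscle against liver).

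Fmod, known from tendon and other tensile tissue, was highest in muscle, and Ogn, Lum, Bgn and Dcn were highest in heart among the WT tissues. Fmod averaged 18.9 ± 4.16 TPM in WT muscle, 2.48 ± 1.78 TPM in WT heart, 1.20 ± 0.243 TPM in WT liver and 0.923 ± 0.252 TPM in WT BAT, a 20.5-fold span between the highest and the lowest mean. BAT and liver did not pass the test for Fmod (adjusted p = 0.463). Ogn averaged 50.2 ± 7.21 TPM in WT heart, 17.9 ± 1.69 TPM in WT muscle, 7.34 ± 1.93 TPM in WT BAT and 2.59 ± 0.395 TPM in WT liver, and Lum followed the same order at 27.8 ± 2.01, 11.4 ± 1.20, 7.81 ± 1.33 and 3.62 ± 0.440 TPM. For Ogn and Lum every pair of tissues passed the test (largest adjusted p = 0.000713, Lum in muscle over BAT).

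Dcn averaged 367 ± 58.6 TPM in WT heart and 262 ± 17.4 TPM in WT muscle, and 97.4 ± 16.6 TPM in WT liver and 96.3 ± 9.68 TPM in WT BAT (SD, n = 4 each). Muscle was below heart (log2 difference -0.47, adjusted p = 0.00303, limma), while BAT against liver did not pass (adjusted p = 0.967). Bgn, which carries sugar chains like Dcn, averaged 94.1 ± 13.0 TPM in WT heart, and liver (46.9 ± 2.97 TPM), BAT (42.5 ± 17.5 TPM) and muscle (34.5 ± 5.11 TPM) did not pass the test against each other. Aspn and Dpt were lowest in liver, below each other tissue (limma). Aspn had 0.635 ± 0.164 TPM in WT liver, against 13.1 ± 1.68 TPM in WT muscle, 11.5 ± 1.96 TPM in WT BAT and 10.3 ± 0.897 TPM in WT heart. Dpt had 5.13 ± 0.627 TPM in WT liver, against 60.5 ± 9.34 TPM in WT heart, 56.1 ± 11.4 TPM in WT BAT and 27.2 ± 3.11 TPM in WT muscle. Heart and BAT did not pass the test for either gene (adjusted p = 0.320 for Aspn and 0.495 for Dpt), nor did muscle and BAT for Aspn (0.171). In the Mut libraries the order of heart and BAT was the other way for Dpt and Fmod: heart minus BAT was -1.32 for Dpt and -0.89 for Fmod on the log2 scale (adjusted p = 0.000143 and 0.000893, limma), against 0.12 and 0.75 in the WT libraries.

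**Figure D2:**
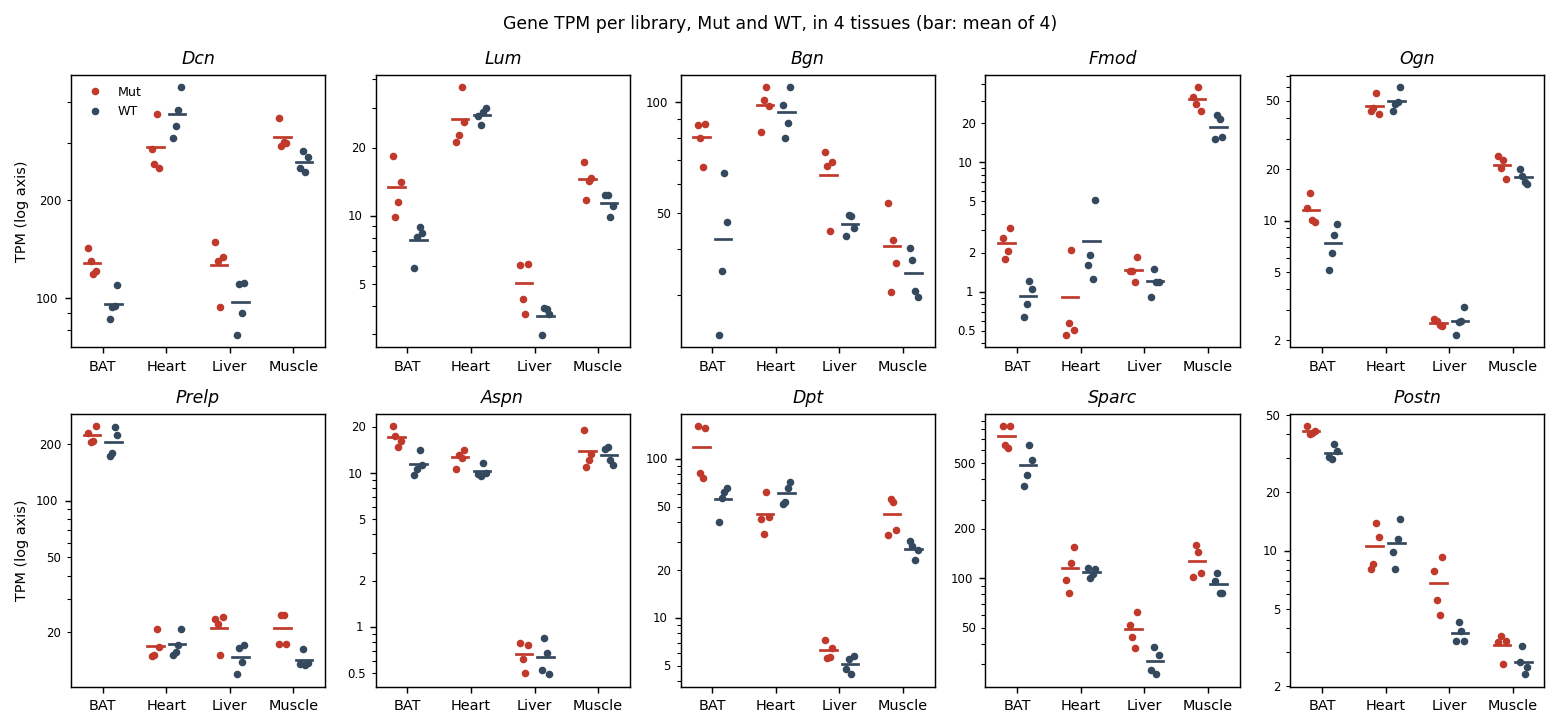
TPM of each gene in every library (log axis), with Mut (red) left of WT (dark) in each tissue and a bar at the mean of 4. Prelp, Sparc and Postn are highest in BAT, Fmod in muscle and Lum and Ogn in heart, and in BAT the Mut points lie above the WT points for 8 of the 10 genes.

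The central comparison asked how the 10 genes differed between Mut and WT within each tissue. A separate limma fit was made for each tissue, over the genes averaging 1 TPM or more in it, and p-values were adjusted over all of those. No gene of the 10 passed an adjusted p of 0.05 in any tissue, so the differences that follow are given as values with their intervals and not as changes.

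In BAT all 10 genes were higher on average in Mut than in WT. Their median log2 difference was 0.61, beside 0.09 over all 12150 genes tested, of which 72.7% were above 0. No gene of the tissue was called, so the share of all genes called was 0%. At an unadjusted p under 0.05, 9 of the 10 were higher, against 17.2% of all genes, and adjusted p ran from 0.106 (Fmod) to 0.622 (Prelp). For 8 of the 10, all but Prelp and Sparc, every Mut library lay above every WT library, against 7.75% of all genes. With array weights, which count outlying libraries less, limma called 7 of the 10, against 5.33% of all genes. With 1 fit over all 32 libraries it also called 7, against 6.98%. That joint fit shares 1 estimate of the spread per gene over all tissues. The called genes were not the same 7 in both.

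On the log2(TPM + 1) scale Dpt and Bgn had the largest differences in BAT, while Fmod had the largest ratio of Mut to WT means. That ratio was 2.59 for Fmod, 2.10 for Dpt and 1.89 for Bgn. Dpt had 160, 80.8, 75.4 and 156 TPM in Mut BAT, against 39.9, 56.8, 62.1 and 65.7 TPM in WT BAT. The groups do not overlap, and Mut 1 and Mut 4 lie far above the other Mut libraries. The log2 difference was 1.00 (95% interval 0.40 to 1.60, adjusted p = 0.134, limma). The same 2 Mut libraries had the highest sums over the 7 white fat markers, 398 and 480 TPM, against 297 and 231 TPM in Mut 2 and Mut 3 and 155 to 255 TPM in WT, and none of these 7 markers was at 0 in BAT. Of the 5 that were tested all 5 were higher in Mut and none was called, and their part in the result was not tested. Bgn had 87.0, 80.2, 67.0 and 87.5 TPM in Mut BAT, against 23.4, 34.9, 64.4 and 47.3 TPM in WT BAT. All 4 Mut values are above all 4 WT values, and the WT values are the more scattered. Its log2 difference was 0.99 (95% interval 0.42 to 1.56, adjusted p = 0.125).

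Fmod, at low level, had 2.59, 1.80, 2.06 and 3.09 TPM in Mut BAT, against 0.636, 0.805, 1.20 and 1.05 TPM in WT BAT. The groups do not overlap, the ratio of means was 2.59, and the log2 difference on the log2(TPM + 1) scale was 0.81 (95% interval 0.49 to 1.13, adjusted p = 0.106). Lum had 18.4, 9.89, 11.6 and 14.0 TPM in Mut BAT, against 5.88, 8.09, 8.89 and 8.39 TPM in WT BAT, a log2 difference of 0.69 with groups that do not overlap (adjusted p = 0.127). Ogn had 11.8, 14.5, 10.1 and 9.86 TPM in Mut BAT, against 5.15, 6.46, 8.22 and 9.54 TPM in WT BAT. The lowest Mut and the highest WT value of Ogn are close, and the log2 difference was 0.61 (adjusted p = 0.151).

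Sparc, the most abundant of the 10, had 836, 644, 621 and 835 TPM in Mut BAT, against 360, 420, 641 and 523 TPM in WT BAT. WT 3 lies inside the Mut range, and the log2 difference was 0.61 (95% interval 0.21 to 1.01, adjusted p = 0.151). Postn was the least scattered, with 43.8, 39.8, 40.4 and 41.5 TPM in Mut BAT, against 30.4, 29.8, 35.3 and 32.8 TPM in WT BAT. Its log2 difference was 0.36 (95% interval 0.19 to 0.53, adjusted p = 0.112). Dcn and Aspn also had groups that do not overlap, with 128 ± 10.9 TPM in Mut and 96.3 ± 9.68 TPM in WT for Dcn, and 17.1 ± 2.30 TPM in Mut and 11.5 ± 1.96 TPM in WT for Aspn (SD, n = 4 each). Prelp was 223 ± 21.0 TPM in Mut and 206 ± 35.9 TPM in WT, with overlapping groups.

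Sums over markers of other stromal and blood-borne cells are given here beside these genes in BAT. The 13 fibroblast markers summed to 751 to 1355 TPM in Mut and 491 to 715 TPM in WT. Much of this sum was Gsn alone, at 378 to 717 TPM in Mut and 302 to 482 TPM in WT. Of the 13, 4 are also among the collagen and elastic fibre genes given further on. All 12 fibroblast markers that were tested were higher in Mut, none called. The 11 macrophage markers summed to 195 to 267 TPM in Mut and to 41.1, 58.8, 199 and 126 TPM in WT 1 to WT 4. All 8 that were tested were higher in Mut, none was called, and no marker of the list was at 0. The 8 red blood cell markers summed to 4097 to 6240 TPM in Mut and 2107 to 3879 TPM in WT. The 10 endothelial markers summed to 320 to 415 TPM in Mut and 282 to 328 TPM in WT, and the 8 skeletal muscle markers to 1079 to 2763 TPM in Mut and 1197 to 1303 TPM in WT. These last pairs of sums overlap between the groups, and no marker of either list was called. The part of these markers in the results was not tested. Without WT 1 and WT 2, the libraries that stand apart, 9 of the 10 genes kept a log2 difference above 0 and Prelp was at -0.08. Bgn was then at 0.53, Sparc at 0.33, Ogn at 0.34, Dpt at 0.79 and Fmod at 0.66, and no gene of the 10 was called. Without WT 3 alone, 5 of the 10 were called, Bgn, Fmod, Aspn, Sparc and Postn, against 6.74% of all genes.

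**Figure D3:**
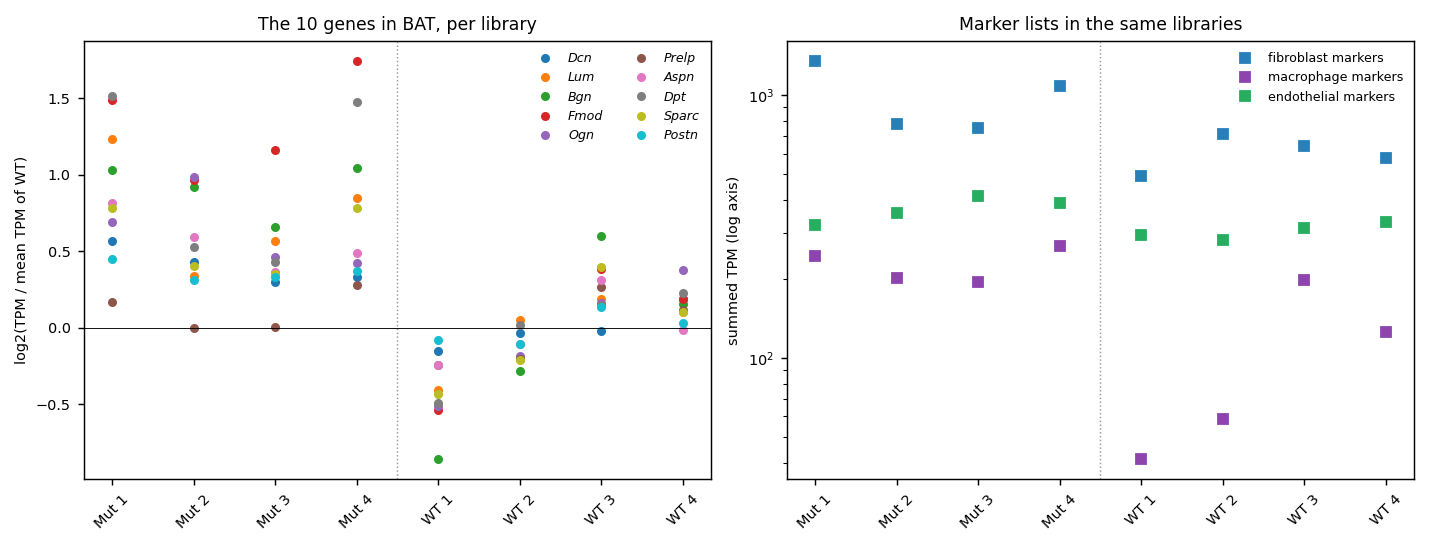
Left, log2 of each gene's TPM over its mean in WT, in the 4 Mut and the 4 WT libraries of BAT; right, summed TPM of the fibroblast, macrophage and endothelial marker lists in the same libraries (log axis). WT 1 is lowest for all of the genes but Postn, and the macrophage sum is 195 to 267 TPM in Mut but 41.1 and 58.8 TPM in WT 1 and WT 2.

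In heart the 10 genes did not move together. On average 3 were higher and 7 lower in Mut, none was called, and 0.150% of all genes were. Their median log2 difference was -0.07 beside -0.11 over all genes, and only 19.3% of all genes were above 0. Under median-ratio scaling, which sets the median of all genes to 0, Lum, Ogn, Prelp and Postn turned to differences above 0, so that of the 7 only Dcn, Fmod and Dpt were then lower in Mut. At an unadjusted p under 0.05, 3 were lower, Dcn, Fmod and Dpt, against 11.1% of all genes, and 1 was higher, Aspn, against 0.574%. No gene of the 10 had groups that do not overlap, against 7.21% of all genes lower and 0.324% higher.

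Dpt had 41.6, 33.7, 62.0 and 43.1 TPM in Mut heart, against 51.9, 53.5, 65.4 and 71.2 TPM in WT heart. Mut 3 lies among the WT values, and the log2 difference was -0.44 (95% interval -0.82 to -0.06, adjusted p = 0.410, limma). Dcn had 286, 258, 367 and 251 TPM in Mut heart, against 309, 337, 377 and 444 TPM in WT heart, again with Mut 3 among the WT values and a log2 difference of -0.34 (adjusted p = 0.426). Fmod had 0.463, 0.576, 2.10 and 0.505 TPM in Mut heart, against 1.62, 1.93, 1.25 and 5.13 TPM in WT heart. In Fmod 1 high library in each group, Mut 3 and WT 4, carries much of the mean, and the log2 difference was -0.83 (95% interval -1.51 to -0.14, adjusted p = 0.397). Aspn ran the other way, with 10.6, 13.2, 12.6 and 14.2 TPM in Mut heart, against 9.91, 9.59, 11.6 and 9.98 TPM in WT heart, and a log2 difference of 0.27 (adjusted p = 0.410).

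Marker sums of other cell types also differed between heart libraries. The 8 atrial markers summed to 28.4 to 96.5 TPM in Mut heart and to 338 to 3435 TPM in WT heart, and 5 of the 7 that were tested fell in Mut. The 7 mesothelial markers summed to 2.32 to 4.87 TPM in Mut heart and 3.63 to 22.7 TPM in WT heart, and 3 of the 4 that were tested were lower at an unadjusted p under 0.05, none called. WT 4, the library highest in Fmod, Dpt and Dcn, had the highest sum of both lists, and no marker of either was at 0. WT 3 had the lowest WT sums of both lists, 338 and 3.63 TPM. It was the next highest library in Dcn and Dpt, at 377 and 65.4 TPM, and the lowest WT library in Fmod, at 1.25 TPM. The 11 tendon and cartilage markers summed to 4.15 to 9.87 TPM in Mut and 6.77 to 12.2 TPM in WT, highest in Mut 3 and WT 4, the same libraries in which Fmod is high. Tnmd, Kera, Col2a1 and Acan of this list were at 0 in at least 1 heart library. The 13 fibroblast markers summed to 560 to 865 TPM in Mut and 669 to 990 TPM in WT. Gsn alone had 338 to 551 TPM in Mut and 378 to 705 TPM in WT. The part of these markers in the result was not tested. With Mut 2 left out the log2 difference was -0.28 for Dcn, -0.31 for Dpt and -0.76 for Fmod, and Prelp and Postn turned to 0.02 each.

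In liver 9 of the 10 genes were tested, since Aspn, at 0.668 ± 0.132 TPM in Mut and 0.635 ± 0.164 TPM in WT, was below the minimum. Of the 9, 8 were higher on average in Mut and Ogn was level, at 2.53 ± 0.111 TPM in Mut and 2.59 ± 0.395 TPM in WT (SD, n = 4 each). None was called, against 4.16% of all genes. At an unadjusted p under 0.05, 7 of the 9 were higher, against 21.4% of all genes. The groups did not overlap for Postn alone, against 14.3% of all genes, which is near the share of 1 in 9. The median log2 difference of the 9 was 0.37, beside 0.10 over all genes, of which 69.0% were above 0, and the directions held under median-ratio scaling.

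Postn and Sparc came nearest to the threshold in liver. Postn had 7.86, 5.56, 4.65 and 9.28 TPM in Mut liver, against 3.44, 4.29, 3.85 and 3.43 TPM in WT liver. All Mut values lie above all WT values, and the log2 difference was 0.69 (95% interval 0.29 to 1.08, adjusted p = 0.0587, limma). Sparc had 51.8, 44.1, 37.7 and 61.9 TPM in Mut liver, against 27.7, 38.0, 26.0 and 34.2 TPM in WT liver. Mut 3 is just under the highest WT value, and the log2 difference was 0.61 (95% interval 0.24 to 0.98, adjusted p = 0.0662). Prelp had 23.4, 22.0, 15.2 and 24.0 TPM in Mut liver, against 11.9, 16.5, 13.8 and 17.0 TPM in WT liver, a log2 difference of 0.48 (adjusted p = 0.103). Mut 3 is the lowest Mut library for Dcn, Lum, Bgn, Fmod, Prelp, Sparc and Postn, and without it Bgn, Prelp and Postn passed the threshold, against 2.12% of all genes.

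Macrophage markers and markers of hepatic stellate cells, the matrix-producing cells of liver, were higher on average in Mut liver. The 11 macrophage markers summed to 127 to 372 TPM in Mut and 57.4 to 203 TPM in WT, all 11 were higher and 1, Cd68, rose (log2 difference 1.09, adjusted p = 0.0380, limma, lost under 9 of 17 alternatives). The 11 stellate cell markers summed to 159 to 245 TPM in Mut and 135 to 211 TPM in WT. Ecm1 alone had 70.6 to 114 TPM in Mut and 54.8 to 114 TPM in WT. All 10 that were tested were higher and none was called. At an unadjusted p under 0.05, 6 were higher, against 21.4% of all genes. The groups did not overlap for 1, Lrat, against 14.3% of all genes. Lrat had 4.45 to 7.36 TPM in Mut and 1.40 to 3.72 TPM in WT. The 13 fibroblast markers summed to 74.2 to 101 TPM in Mut and 62.0 to 72.7 TPM in WT, and 3 of the 10 that were tested rose, the collagen genes given further on. The 8 hepatocyte markers, by contrast, were all lower on average in Mut liver, with a median log2 difference of -0.21 beside 0.10 over all genes. Apoa1 and Serpina1a were lower at an unadjusted p under 0.05, and none of the 8 was called. They summed to 72076 to 95838 TPM in Mut and 82225 to 95896 TPM in WT. Among them Apoa1, the main protein of high-density lipoprotein, was the one whose groups did not overlap, at 7040 ± 1685 TPM in Mut and 11446 ± 1180.5 TPM in WT (SD, n = 4 each). No marker of these lists was at 0 in liver, and Mut 4, the highest library for Postn and Sparc, had the highest macrophage sum. WT 4 had the next highest macrophage sum, 203 TPM. It was the lowest of all the livers in Postn, at 3.43 TPM. Among the WT livers it was highest in Dcn, Prelp, Dpt and Ogn, at 111, 17.0, 5.80 and 3.10 TPM. In Sparc, Lum, Bgn and Fmod it lay between other WT livers. The part of these markers in the result was not tested.

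In muscle all 10 genes were higher on average in Mut, and none was called, against 0.00850% of all genes. At an unadjusted p under 0.05, 6 were higher, against 6.33% of all genes, and 4 had groups that do not overlap, Dcn, Fmod, Prelp and Dpt, against 3.83%. Their median log2 difference was 0.28, beside 0.05 over all genes, of which 67.0% were above 0. Under median-ratio scaling Aspn went to -0.00172 and the other 9 stayed above 0.

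Fmod had 32.2, 28.2, 38.2 and 25.1 TPM in Mut muscle, against 15.1, 23.2, 21.8 and 15.6 TPM in WT muscle. The groups do not overlap, and the log2 difference was 0.69 (95% interval 0.32 to 1.06, adjusted p = 0.405, limma). Dpt had 33.0, 56.2, 53.6 and 35.9 TPM in Mut muscle, against 30.5, 28.3, 23.1 and 26.9 TPM in WT muscle, with Mut 2 and Mut 3 high and a log2 difference of 0.66 (95% interval 0.28 to 1.05, adjusted p = 0.431). Prelp showed the same pair high, with 17.3, 24.6, 24.6 and 17.3 TPM in Mut muscle, against 13.5, 16.3, 13.4 and 13.7 TPM in WT muscle (log2 difference 0.51, adjusted p = 0.431). Dcn had 356, 292, 301 and 298 TPM in Mut muscle, against 251, 282, 245 and 270 TPM in WT muscle, with groups apart and a log2 difference of 0.25 (adjusted p = 0.568).

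Mut 2 and Mut 3, which stand apart in muscle, held the highest sums over the 7 white fat markers, 73.2 and 61.0 TPM, against 25.2 and 31.6 TPM in Mut 1 and Mut 4 and 24.5 to 38.7 TPM in WT; no marker of that list was at 0. The 11 tendon and cartilage markers summed to 47.6 to 68.4 TPM in Mut and 37.9 to 47.8 TPM in WT, with 6 of the 7 that were tested higher and none called, and Acan was at 0 in at least 1 library. The 13 fibroblast markers summed to 606 to 720 TPM in Mut and 453 to 570 TPM in WT. Gsn alone had 347 to 469 TPM in Mut and 258 to 327 TPM in WT. The 11 macrophage markers summed to 48.1 to 66.7 TPM in Mut and 35.4 to 45.7 TPM in WT. The part of these markers was not tested. Without Mut 2 and Mut 3 all 10 genes kept a log2 difference above 0, Dpt at 0.34, Prelp at 0.27 and Fmod at 0.59, and none was called.

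**Figure D4:**
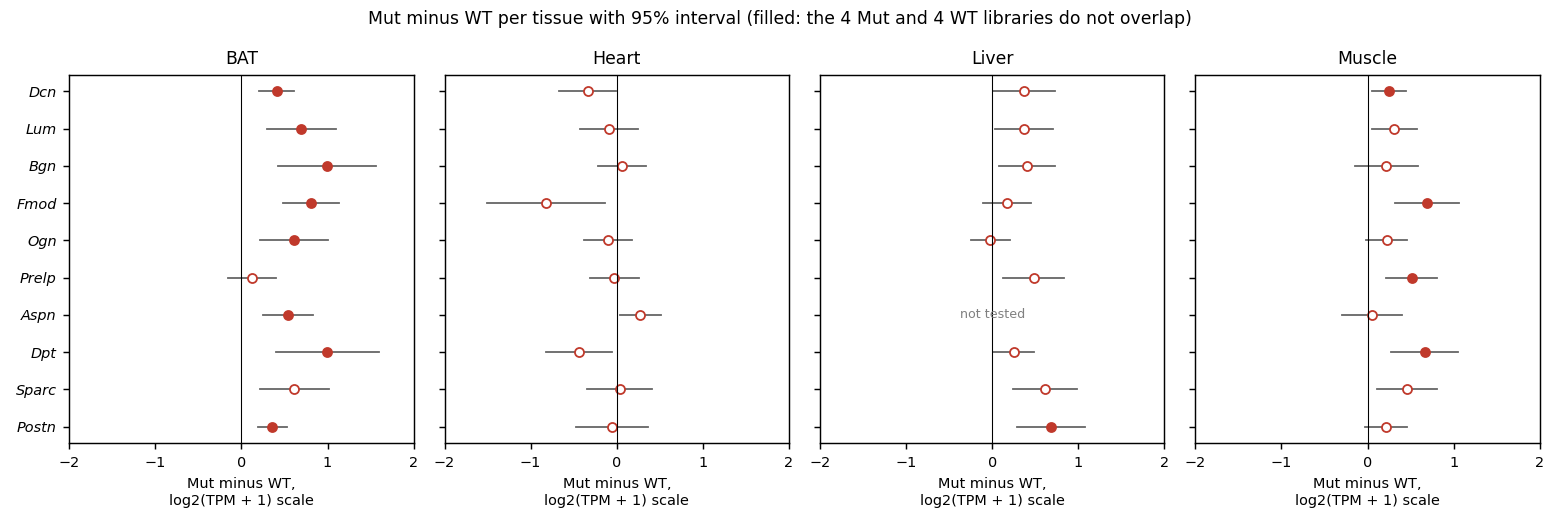
Mut minus WT of each gene on the log2(TPM + 1) scale with its 95% interval, by tissue; a filled point marks groups whose 4 Mut and 4 WT libraries do not overlap. The 10 points lie right of 0 in BAT and in muscle, on both sides in heart, and 8 of 9 lie right of 0 in liver, where Aspn was not tested.

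Whether the Mut minus WT difference itself varied between tissues was tested in 1 limma fit over the 32 libraries and 12817 genes, with an F test for the interaction of genotype and tissue. It called 3 of the 10 genes, Fmod (adjusted p = 0.00950), Dpt (adjusted p = 0.0192) and Dcn (adjusted p = 0.0391), against 5.95% of all genes. At an unadjusted p under 0.05, 9 of the 10 passed, Sparc being the other, against 27.5% of all genes. The alternatives run for this test were a pseudocount of 0.1, a minimum of 1 TPM in every tissue, no filter, median-ratio scaling, the replicate block, each of the 32 libraries left out, and BAT WT 1 and WT 2 or Muscle Mut 2 and Mut 3 left out together. Array weights, the rescaling, the fit without a trend and the minimum of 5 TPM were not run for it. Fmod and Dpt kept their call under these 39 alternatives, and Dcn lost it under 17 of them, with adjusted p from 0.0121 to 0.156. Without BAT WT 1 and WT 2 the adjusted p was 0.0197 for Fmod, 0.0423 for Dpt and 0.0612 for Dcn, and without Muscle Mut 2 and Mut 3 it was 0.0171, 0.0212 and 0.0429. Dcn was at an adjusted p of 0.156 with median-ratio scaling, of 0.0734 without a filter, and of 0.0504 to 0.112 in 14 fits that each left out 1 library. These were BAT WT 1 and WT 2, BAT Mut 1, Mut 2 and Mut 4, Heart WT 2, WT 3 and WT 4, Heart Mut 1, Mut 2 and Mut 4, Liver WT 3, and Liver Mut 1 and Mut 2.

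The pair of tissues with most calls among the 10 was BAT and heart. The effect in BAT minus the effect in heart was called for 6 of the 10 genes, against 6.26% of all genes, each with the higher Mut minus WT value in BAT. It was 1.64 for Fmod (adjusted p = 0.00996), 1.44 for Dpt (adjusted p = 0.0125), 0.93 for Bgn (0.0482), 0.78 for Lum (0.0467), 0.75 for Dcn (0.0268) and 0.71 for Ogn (0.0330), on the log2 scale, adjusted p in limma. Median-ratio scaling and the absence of a filter each left 2 called, and leaving out 1 library left 2 to 6, with 2 without BAT WT 1, Heart WT 4 or Heart Mut 2 and 3 without BAT WT 2, BAT Mut 1, Heart WT 2 or Heart Mut 1. Fmod and Dpt were called in every one of these. Without BAT WT 1 and WT 2 together none of the 10 was called, against 0.327% of all genes, and Fmod was at 1.48 (adjusted p = 0.0646) and Dpt at 1.23 (adjusted p = 0.0766). The effect in heart minus the effect in liver was called for 2 genes, Dcn (-0.71, adjusted p = 0.0276) and Postn (-0.74, adjusted p = 0.0472), against 6.42% of all genes, and for none under median-ratio scaling or without a filter. It was called for none without Heart WT 4, Heart Mut 1, Heart Mut 2, Liver WT 1, Liver WT 3, Liver Mut 1 or Liver Mut 4, and for 1 gene without BAT WT 2 or WT 4, any BAT Mut library, Liver WT 4, any Muscle WT library or Muscle Mut 4. The other pairs of tissues gave no call among the 10, against 3.40% of all genes for BAT and liver, 0.0156% for BAT and muscle, 0.0624% for heart and muscle and 1.04% for liver and muscle. Some uncalled differences were larger than several of the called ones, since the effect in heart minus the effect in muscle was -1.51 for Fmod (adjusted p = 0.0743) and -1.10 for Dpt (adjusted p = 0.224).

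Other matrix genes were counted in the same way, and their counts stand beside the shares of all genes given above. These lists too were chosen with earlier results of these data known. In BAT 72.7% of all genes were above 0 and 17.2% were higher at an unadjusted p under 0.05, and in muscle 67.0% and 6.33%. In heart 19.3% were above 0, so most genes were lower there, 11.1% at that p. Of the 18 other matricellular genes, such as thrombospondins, tenascins and CCN proteins, 12 of 13 tested were higher in Mut BAT, 10 of them at an unadjusted p under 0.05, and none was called (median log2 difference 0.68). In Mut muscle 15 of 15 were higher, 9 of them at an unadjusted p under 0.05, and none was called (median 0.31). In Mut heart 11 of 14 were lower, 2 of them at an unadjusted p under 0.05, which is near the shares of all genes. The collagens that the 10 proteins bind or assemble, 13 fibrillar and associated collagen genes, were higher in 13 of 13 in Mut BAT (median 1.03, 11 at an unadjusted p under 0.05, none called). Col1a1 had 24.7 to 63.4 TPM in Mut BAT, against 6.24 to 23.2 TPM in WT BAT. In Mut muscle 13 of 13 collagen genes were higher (median 0.31, 6 at an unadjusted p under 0.05, none called), and in Mut heart 4 were higher and 8 lower (median -0.04, none at an unadjusted p under 0.05). Of the 12 elastic fibre and fibulin genes, 11 of 11 tested were higher in Mut BAT and 12 of 12 in Mut muscle, with 9 and 6 at an unadjusted p under 0.05 and none called. Of the 11 other small leucine-rich proteoglycan genes, 4 of 4 tested were higher in Mut BAT and 4 of 5 in Mut muscle, with 2 at an unadjusted p under 0.05 in each and none called.

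In liver companions from each of these 4 lists passed the test, where 4.16% of all genes were called. Col1a1, Col1a2 and Col3a1, which encode the chains of fibrillar collagens I and III, rose in Mut liver, as 3 of 11 tested collagen genes, 10 of which were higher. Col3a1 had a log2 difference of 1.16 (adjusted p = 0.0254), Col1a1 of 1.07 (adjusted p = 0.0205) and Col1a2 of 0.84 (adjusted p = 0.0247), all in limma. Col3a1 had 15.4 to 24.5 TPM in Mut liver, against 5.31 to 11.0 TPM in WT liver, with no overlap. Among the other small leucine-rich proteoglycans 1 of 3 tested was called, and among the other matricellular genes 2 of 8. Tsku (tsukushi, a secreted leucine-rich repeat protein made by hepatocytes) rose by 0.68 (adjusted p = 0.0324), Spp1 (osteopontin) by 0.81 (adjusted p = 0.0313) and Tgfbi, which binds collagen and integrins, by 0.61 (adjusted p = 0.0475). Of the 6 elastic fibre and fibulin genes tested Efemp2 and Fbln2 rose, by 0.58 and 0.53 (adjusted p = 0.0254 and 0.0420). Each kept its direction under every alternative and lost the call under 4 to 11 of 16 or 17.

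No gene was called among the enzymes, ligands and receptors that act with these proteins. The 26 enzymes that build chondroitin, dermatan and keratan sulfate chains were higher in 17 of 19 tested in Mut BAT (median 0.27, 7 at an unadjusted p under 0.05), 3 of 15 in Mut heart (median -0.08, none at that p), 11 of 13 in Mut liver (median 0.09, 3 at that p) and 11 of 13 in Mut muscle (median 0.20, 4 at that p). Decorin and biglycan can bind TGF-beta, and the 10 genes of its ligands, receptors and latent binding proteins were higher in 7 of 9 tested in Mut BAT, 0 of 9 in Mut heart, 5 of 7 in Mut liver and 9 of 9 in Mut muscle. Of these 4, 0, 2 and 2 were higher at an unadjusted p under 0.05. The counts of 7 of 9 in BAT and 5 of 7 in liver are near the 72.7% and 69.0% of all genes above 0, and the 3 of 15 enzymes in heart near its 19.3%. The 11 receptors and clearance genes, such as integrin subunits, Stab1 (which takes up SPARC) and Ddr2 (a collagen receptor), were higher in 9 of 10, 1 of 9, 5 of 8 and 7 of 9 in the same order, with 5, 0, 2 and 2 higher at an unadjusted p under 0.05. Some genes of these 3 lists were lower at an unadjusted p under 0.05, and none of them was called. In BAT, where 2.35% of all genes were lower at that p, they were Tgfbr2, Vldlr and Chst11. Tgfbr2, a TGF-beta receptor gene, had 11.3 to 12.9 TPM in Mut BAT, against 13.6 to 15.7 TPM in WT BAT, with groups apart (log2 difference -0.26, adjusted p = 0.154, limma). Vldlr, a lipoprotein receptor gene, had 24.8 to 27.2 TPM in Mut BAT, against 28.9 to 35.8 TPM in WT BAT, also apart (log2 difference -0.31, adjusted p = 0.129). Chst11, a chondroitin sulfotransferase gene, had 6.84 to 7.59 TPM in Mut BAT, against 7.49 to 9.99 TPM in WT BAT, and the groups overlap. In liver, where 4.46% of all genes were lower at that p, it was Egfr, a growth factor receptor gene, with 13.5 to 61.3 TPM in Mut liver, against 49.1 to 82.7 TPM in WT liver (log2 difference -1.10, adjusted p = 0.122, overlapping groups). The 9 large and basement membrane proteoglycan genes, Vcan and Hspg2 among them, were higher in 4 of 4, 3 of 5, 1 of 3 and 4 of 5, with 2, 0, 1 and 0 higher at an unadjusted p under 0.05.

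From library to library within a group the 10 genes varied together in part. After each group mean was removed from log2(TPM + 1), Pearson's r over the 32 libraries had a median of 0.51 over the 45 pairs of genes, from 0.08 for Aspn and Dpt to 0.79 for Prelp and Sparc. Over the 8 group means the median was 0.37, from -0.57 for Fmod and Postn to 0.98 for Lum and Ogn. The libraries share a scaling to a fixed sum, so these values describe the libraries and carry no test.

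The likeness of other genes to each of the 10 was measured by the same r within groups. Dpt was nearest to Ccdc80 (r = 0.90), Mrc2 (0.89), a collagen receptor, and Cpxm1 (0.87). Sparc was nearest to Sod3 (0.90), Mcam (0.89) and Col1a1 (0.86), and Prelp to Sod3 (0.87), Cltc (0.87) and Lpp (0.86). Dcn was nearest to Antxr1 (0.83), Pdgfra (0.81), a fibroblast receptor, and Ccbe1 (0.81). Fmod was nearest to Comp (0.84), a tendon and cartilage matrix gene, Reck (0.81) and Dkk3 (0.81). Lum was nearest to Col14a1 (0.80), Bgn to Degs1 (0.84), Ogn to Mcpt4 (0.78), a mast cell protease gene, Aspn to Haus8 (0.79) and Postn to Tbc1d22a (0.76). These are the highest r among all genes averaging 1 TPM or more over the 32 libraries. Over the 8 group means the nearest gene was Glipr2 for Dpt (r = 0.996) and Asns for Prelp (r = 0.997).

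Postn transcripts differ in the exons that encode the end of the protein, and their shares are given by tissue. The transcript ENSMUST00000117373 has 21 exons and 3121 bases. ENSMUST00000107985 has in addition an exon of 81 bases at chr3:54380412-54380492, and ENSMUST00000073012 an exon of 84 bases at chr3:54385671-54385754, both on GRCm38. ENSMUST00000117373 took 81.1% ± 1.84 of Postn TPM in Mut BAT and 83.7% ± 2.37 in WT BAT (SD, n = 4 each). In liver it took 81.9% ± 4.98 in Mut and 69.1% ± 9.54 in WT, in heart 61.6% ± 14.3 in Mut and 41.1% ± 11.8 in WT, and in muscle 37.8% ± 15.8 in Mut and 42.7% ± 16.5 in WT. ENSMUST00000107985 took 1.49% ± 0.206 in Mut BAT and 1.63% ± 0.950 in WT BAT, but 13.5% ± 5.03 in Mut heart and 23.4% ± 3.12 in WT heart, and 31.3% ± 11.3 in Mut muscle and 26.9% ± 17.1 in WT muscle. ENSMUST00000073012 took 13.1% ± 6.86 in Mut heart and 23.9% ± 6.24 in WT heart, against 1.90% ± 0.695 in Mut BAT and 1.95% ± 0.606 in WT BAT. Shares in muscle and liver rest on a low Postn level and scatter widely, and no test was run on shares that Salmon divides among overlapping transcripts.

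**Figure D5:**
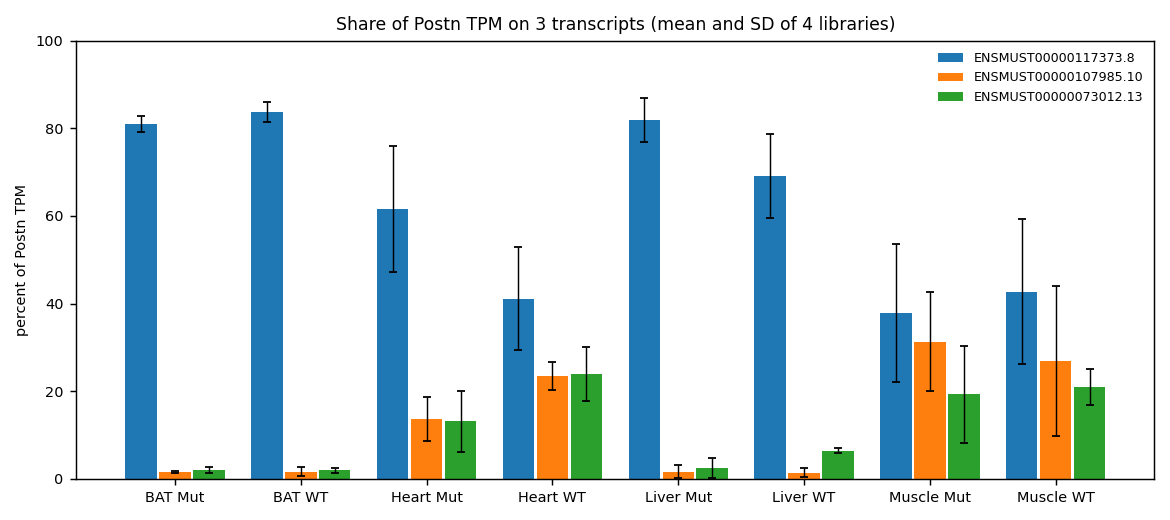
Percent of Postn TPM on 3 transcripts in the 8 groups, as mean and SD of 4 libraries, with Mut left of WT in each tissue. The transcript that lacks both extra exons takes over 80% in BAT of both genotypes and 37.8% to 61.6% in heart and muscle.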

How the data were processed

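RNA was extracted with magnetic beads and made into strand-specific Illumina libraries, per the labels' protocols. The values deposited by the authors are TPM per transcript, made with Salmon per the submitters' processing notes; the sources used here do not give its version, the transcriptome release or a build. The TPM sum to between 999999.4 and 1000000.3 in every library, so depth is unknown. Of 147493 transcripts 136081 (92.26%) were matched, versions ignored, to GENCODE M21 on GRCm38 and summed per gene, and the rest held 0.451% to 0.896% of the TPM.

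Groups come from the sample titles. Mut minus WT was fitted within each tissue with limma 3.58.1 (R 4.3.3) and a mean-variance trend, on log2(TPM + 1), for genes averaging 1 TPM or more. Two-sided p-values were adjusted by Benjamini-Hochberg over all genes tested. This scale understates the change of low genes. WT tissue contrasts used 1 fit over the 16 WT libraries, and the interaction 1 fit over all 32. P-values measure the spread between libraries of individual mice. Same-numbered Mut and WT libraries were not paired. The main fits took libraries of different tissues as independent, and whether they share mice was not tested. The procedure was tested on simulated data. Figures were made with Python 3.11.15 and matplotlib 3.10.9.

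The members and the companion lists were chosen with earlier results of these data known. Companion genes are named where called in a tissue, up to 4 a list by smallest p, and for likeness by the 3 highest r; Col1a1 in BAT, Tgfbr2, Vldlr, Chst11 and Egfr were chosen after their values were seen. Motifs were searched on both strands of the RefSeq windows.

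The alternatives tried were a pseudocount of 0.1, no filter, a minimum of 5 TPM or of 1 TPM in every tissue, median-ratio scaling, a rescaling that drops mitochondrial genes and the 10 most abundant ones, no trend, array weights, 1 fit over all libraries, the replicate number as a block, the Mut libraries for tissue contrasts, and leaving out each library. Leaving out 2 libraries of BAT or of muscle together, within a tissue, in WT tissue contrasts and in the interaction, was chosen after seeing the data.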

Additional observations from a re-analysis of the deposited data

Results flagged for a closer look

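Of 80 groups of 4 libraries, 3 held a library far from the other 3, and about 1 group in 20 does so by chance alone. Dcn had 356 TPM in muscle Mut 1, where the remaining Mut muscles had 292 to 301 TPM. Fmod had 2.10 TPM in heart Mut 3, where the remaining Mut hearts had 0.463 to 0.576 TPM, and that library also had the highest tendon and cartilage marker sum of the Mut hearts, 9.87 TPM. Prelp had 16.3 TPM in muscle WT 2, where the remaining WT muscles had 13.4 to 13.7 TPM.

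The Mut minus WT difference varied between tissues for 3 of the 10 genes. The adjusted p of the interaction in limma was 0.00950 for Fmod, 0.0192 for Dpt and 0.0391 for Dcn. In each of these genes the value was above 0 in BAT and below 0 in heart. Dcn lost its call under 17 of 39 alternatives, and Fmod is close to 1 TPM in BAT and in heart.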

How the results depend on the processing

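Of 3988 alternative values for the genes, the counts and the contrasts, 3565 kept their direction and their side of the threshold, 206 lost a call, 51 gained one, 57 turned direction and 109 were counts that moved by over 1.5 times. These totals include fits without a library of a tissue outside the contrast, where the difference itself cannot change. They also include values called in neither fit, so they are no measure of stability. The depth behind the TPM is unknown, 4 libraries a group limit each fit, and Aspn in liver and Fmod in heart, liver and BAT are close to 1 TPM. The causes of the changes that follow were not tested. Within a tissue the replicate numbers did not pair Mut with WT libraries: of 16 same-numbered pairs 1 had a correlation of deviations over 0.1. No such check was made between tissues. The replicate block called 0 of the 10 genes in each tissue, 3 by interaction and 5, in place of 6, for the effect in BAT minus that in heart, and it changed no count of the 10 genes between tissues.

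In BAT 7 of the 10 genes were called with array weights and 7 with 1 fit over all libraries, and 0 to 5 when 1 library was left out, with 5 without WT 3. In liver 3 were called with 1 fit over all libraries, Prelp, Sparc and Postn, and 0 to 3 when 1 library was left out. The effect in BAT minus that in heart was called for 2 genes without a filter, 2 with median-ratio scaling, 0 without BAT WT 1 and WT 2 together and 2 to 6 with 1 library left out. The effect in heart minus that in liver was called for 0 without a filter, 0 with median-ratio scaling and 0 to 3 with 1 library left out. The interaction called 2 to 5 with 1 library left out, with 5 without BAT WT 3 or Heart Mut 3. Muscle against heart called 5 in the Mut libraries.

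Without BAT WT 1 and WT 2 together, Prelp in BAT turned to -0.082, Dpt in heart minus BAT to -0.090, Dcn and Bgn in BAT minus liver to 0.081 and 0.23, and Prelp in the effect in BAT minus that in heart to -0.055. In heart, median-ratio scaling gave Lum 0.041, Ogn 0.033, Prelp 0.099 and Postn 0.063, the rescaling Lum 0.070, Ogn 0.061, Prelp 0.13 and Postn 0.094, and array weights Lum 0.035, Prelp 0.070 and Postn 0.21. Median-ratio scaling also turned Aspn in muscle (-0.00172), Aspn in heart minus BAT (0.047), Dcn in BAT minus liver (0.026), Prelp in muscle minus liver (0.10), Prelp in the effect in BAT minus that in heart (-0.12) and Ogn in the effect in heart minus that in liver (0.15). In the Mut libraries heart minus BAT was -0.89 for Fmod and -1.32 for Dpt, and muscle minus BAT -0.31 for Aspn. BAT minus liver was there 0.032 for Dcn, 0.35 for Bgn and 0.44 for Fmod. Muscle minus heart was 0.11 for Dcn, 0.29 for Prelp and 0.17 for Sparc, and heart minus liver -0.45 for Fmod and -0.30 for Prelp.

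With 1 library left out, Mut minus WT in heart ran from -0.0098 to 0.14 for Bgn, -0.12 to 0.18 for Sparc, -0.12 to 0.064 for Prelp, -0.19 to 0.078 for Postn and -0.25 to 0.0098 for Lum, in liver from -0.083 to 0.046 for Ogn and in muscle from -0.10 to 0.15 for Aspn. Between WT tissues it ran from -0.034 to 0.20 for Dpt in heart minus BAT, -0.46 to 0.016 for Bgn in muscle minus BAT, -0.11 to 0.062 for Dcn and -0.46 to 0.017 for Bgn in BAT minus liver, and -0.14 to 0.022 for Prelp in muscle minus liver. For Ogn the effect in heart minus that in liver ran from -0.17 to 0.013.

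Over all genes, calls in BAT were 0, and 4 without a filter, 1 at 5 TPM, 648 with array weights, 848 with 1 fit over all libraries and up to 819 with 1 library left out. In heart 18 were called, and 0 without a filter, 10 at 5 TPM, 11 with median-ratio scaling, 44 with array weights, 9 with the block, 166 with 1 fit over all libraries and 7 to 20 with 1 library left out. In liver 499 were called, and 35 without a filter, 272 with median-ratio scaling, 126 with the block, 1902 with 1 fit over all libraries and 22 to 390 with 1 library left out. In muscle 1 was called, and 0 to 8 under the alternatives. The interaction called 762, and 389 to 1367 with 1 library left out.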
